A study of Homo sapiens with 16 samples.

Results

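The claudins and other epithelial junction genes described here were CLDN12, CLDN3, CLDN4, CLDN7, OCLN, TJP1, F11R, CDH1 and CTNND1. They were found by symbol and make up 9 of the 20531 entries of the count table. CLDN12 was chosen because its level was low after SLIRP siRNA in these libraries, and the other 8 genes were taken for comparison as components of the same junctions. The values of CLDN12 under SLIRP siRNA are therefore a description and were not tested.

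LNCaP, a human prostate cancer line of luminal epithelial type that responds to androgen, was transfected for 24 h with siRNA at 40 nM. The siRNA was either the nonsense control, NS, or 3 pooled siRNAs directed at SLIRP, which encodes an RNA-binding protein described as a corepressor of nuclear receptors. Ethanol vehicle or 1 nM of the androgen dihydrotestosterone (DHT) was then given in serum-free medium for a further 24 h. The 4 groups (SLIRP-Veh, NS-Veh, SLIRP-1nM DHT and NS-1nM DHT) had 4 libraries each, collected as 2 biological replicates from each of 2 experiments. All groups shared the transfection and the serum-free medium, and only 1 cell line and 1 siRNA pool against SLIRP were used.

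Tight junctions seal the space between neighbouring epithelial cells near their apical edge. Claudins and occludin form their membrane strands, junctional adhesion molecules lie beside the strands, and zonula occludens scaffolds tie them to actin. Adherens junctions lie just below, where E-cadherin binds E-cadherin of the next cell and its cytoplasmic tail carries the catenins.

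The promoter windows of 4 of the genes are printed to show the sequence around the starts of genes that differed in their response to SLIRP siRNA. Each window runs from 250 bases before to 50 bases after a transcription start listed by RefSeq on GRCh38.p14. Capitals mark the E-box CAGGTG or its reverse complement CACCTG, the word bound in the CDH1 promoter by repressors of epithelial genes such as SNAI1 and ZEB1. CLDN12 (chr7:90403211-90403510, plus strand) and OCLN (chr5:69492540-69492839, plus strand, the second of its listed starts) had the lowest fold changes of the 9 genes. CLDN7 (chr17:7262429-7262728, minus strand, the second of its listed starts) and CLDN3 (chr7:73770221-73770520, minus strand) are claudins with fold changes near 0.
CLDN12: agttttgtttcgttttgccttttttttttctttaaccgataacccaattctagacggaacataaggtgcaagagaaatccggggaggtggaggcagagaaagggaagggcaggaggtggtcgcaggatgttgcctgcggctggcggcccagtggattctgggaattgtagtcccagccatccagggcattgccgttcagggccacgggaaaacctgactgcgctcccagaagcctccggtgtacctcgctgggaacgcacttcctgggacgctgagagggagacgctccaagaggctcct
OCLN: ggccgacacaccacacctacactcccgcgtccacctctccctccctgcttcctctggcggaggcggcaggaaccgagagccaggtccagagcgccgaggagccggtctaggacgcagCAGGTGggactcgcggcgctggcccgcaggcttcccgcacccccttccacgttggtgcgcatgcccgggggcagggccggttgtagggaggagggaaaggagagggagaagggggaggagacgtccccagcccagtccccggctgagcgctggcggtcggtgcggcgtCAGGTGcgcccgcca
CLDN7: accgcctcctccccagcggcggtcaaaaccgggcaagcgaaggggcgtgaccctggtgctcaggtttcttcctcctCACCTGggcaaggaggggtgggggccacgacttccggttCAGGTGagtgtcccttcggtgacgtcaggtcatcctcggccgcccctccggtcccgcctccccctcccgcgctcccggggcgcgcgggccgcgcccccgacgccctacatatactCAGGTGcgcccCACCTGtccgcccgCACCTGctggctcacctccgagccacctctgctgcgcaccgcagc
CLDN3: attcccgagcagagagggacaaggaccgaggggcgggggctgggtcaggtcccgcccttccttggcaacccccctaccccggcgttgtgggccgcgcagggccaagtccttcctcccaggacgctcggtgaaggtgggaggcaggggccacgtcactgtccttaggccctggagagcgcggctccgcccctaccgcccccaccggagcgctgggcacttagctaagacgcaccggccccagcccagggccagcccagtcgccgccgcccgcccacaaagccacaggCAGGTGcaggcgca
The word was found 0 times in the CLDN12 window, 2 times in that of OCLN, 5 times in that of CLDN7 and once in that of CLDN3. The windows at the first listed starts, which are not printed, held it 0 times for CLDN7 (chr17:7263164-7263463) and 1 time for OCLN (chr5:69492297-69492596), so the count depended on the start. It was searched on both strands and was present in 20.6% of the 35116 promoters of the RefSeq table. GC content was 56% for CLDN12, 72% for OCLN, 71.7% for CLDN7 and 72% for CLDN3, beside a median of 58.7% over all promoters. The window of CLDN4 (chr7:73830746-73831045, plus strand) also lacked the word, so both a claudin that was low after SLIRP siRNA and one that was not had no match. The promoter table held 6 of the 9 genes. A match is a description of the letters and not of binding.

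The libraries held between 436353 and 1689708 counts, with a median of 1091545. SLIRP, listed under its older symbol C14orf156, lay between 45.1 and 63.4 CPM (counts per 1000000 counts of a library size scaled by TMM) in the 8 NS libraries and between 1.41 and 8.05 CPM in the 8 SLIRP siRNA libraries. All 7 LNCaP markers were detected, and their summed level was 3921 to 4479 CPM in the NS libraries and 2864 to 3315 CPM in the SLIRP siRNA libraries. FOLH1 had the largest share of this sum, with group means of 2100 and 1821 CPM under NS and 1320 and 1142 CPM under SLIRP siRNA. KLK3 went the other way, from 39.5 CPM in NS-Veh to 96.7 CPM in SLIRP-Veh. Among 8 mesenchymal markers DCN and THY1 had 0 counts in every library, and all 8 summed to between 379 and 576 CPM. FN1, which encodes fibronectin, made up most of that sum, with group means of 382 to 444 CPM, and the list without FN1 summed to between 11.3 and 36.0 CPM. RNA came from whole cultures, in which fewer cells of a kind and less RNA per cell cannot be told apart.

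CLDN12 encodes a claudin that lacks the PDZ-binding tail by which most claudins attach to zonula occludens scaffolds. In vehicle, its level in the 4 NS libraries was 262, 278, 240 and 242 CPM, and in the 4 SLIRP siRNA libraries it was 68.1, 54.8, 64.7 and 65.8 CPM. With DHT, the NS libraries held 253, 248, 261 and 229 CPM and the SLIRP siRNA libraries held 54.8, 43.7, 81.6 and 59.5 CPM. All 8 SLIRP siRNA libraries lay below all 8 NS libraries, and the highest of the former was at 81.6 CPM beside a lowest NS value of 229 CPM. The level was 3.99-fold lower over vehicle and DHT together (log2 fold change -1.996, SE 0.088), 3.90-fold lower in vehicle (log2 fold change -1.96, SE 0.12) and 4.03-fold lower in DHT (log2 fold change -2.01, SE 0.12). These comparisons share libraries, since the first contains the libraries of the other two. The gene lies at chr7:90013035-90142716 on the plus strand of hg19, and its canonical transcript has 4 exons and 3533 bases. It shares exon bases with 1 long noncoding RNA on the same strand, whose reads cannot be told apart from its own in the counts.

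**Figure D1:**
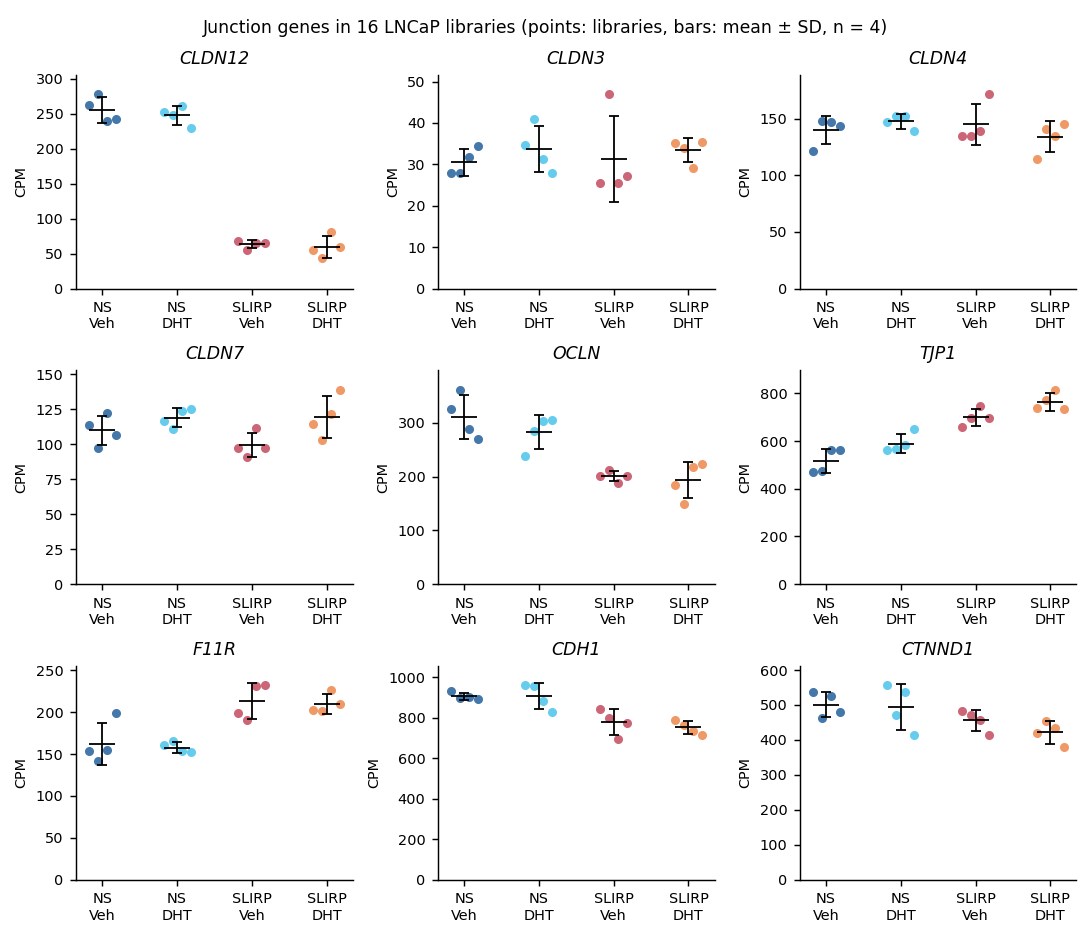
Level of each of the 9 junction genes (vertical axes, CPM, starting at 0) in the 16 libraries (points) by group, with black bars for the mean ± SD of 4 libraries. CLDN12 lies between 229 and 278 CPM in NS libraries and between 43.7 and 81.6 CPM in SLIRP siRNA libraries, whereas CLDN3, CLDN4 and CLDN7 overlap between all groups.

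The other claudins of the set, CLDN3, CLDN4 and CLDN7, are strand-forming claudins with a PDZ-binding tail. CLDN4 lay between 122 and 153 CPM in NS libraries and between 115 and 172 CPM in SLIRP siRNA libraries. CLDN7 ranged from 97.4 to 125 CPM and from 90.8 to 139 CPM, respectively. CLDN3 had the fewest counts, with 27.8 to 40.9 CPM and 25.5 to 47.0 CPM, respectively. For all 3 genes the ranges with and without SLIRP siRNA overlapped. Over vehicle and DHT together the log2 fold change was -0.05 for CLDN4 (SE 0.077, 95% interval -0.20 to 0.10, adjusted p = 0.615), -0.08 for CLDN7 (SE 0.088, 95% interval -0.25 to 0.09, adjusted p = 0.495) and -0.05 for CLDN3 (SE 0.14, 95% interval -0.33 to 0.22, adjusted p = 0.785), in the quasi-likelihood test of edgeR, adjusted by Benjamini-Hochberg over all genes tested. The intervals of CLDN4 and CLDN7 leave room for falls of up to 0.20 and 0.25 on the log2 scale, and that of CLDN3 for a fall of up to 0.33. The canonical transcripts of CLDN3 and CLDN4 have 1 exon each and lie 60725 bases apart on chromosome 7 of hg19, within loci at chr7:73183327-73184600 on the minus strand and chr7:73213872-73247020 on the plus strand, of which the latter begins before its canonical transcript. CLDN7 (chr17:7163222-7167302, minus strand) shares exon bases with 2 protein-coding loci. One lies on the same strand, so that its reads cannot be told apart from those of CLDN7, and the other is ELP5 on the opposite strand, where the sources used here do not state whether the counting used strand.

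Counts on the 4 claudins were also taken as shares of their sum in each library, which does not depend on the scaling of the library. The shares of 4 genes sum to 100%, so a low share of one raises those of the others, and the share of CLDN12 follows from its choice. CLDN12 made up 47.6% ± 2.97 (SD, n = 4) in NS-Veh and 18.7% ± 1.74 in SLIRP-Veh, and with DHT 45.2% ± 0.92 and 17.2% ± 3.68, respectively. CLDN4 stood at 26.1% ± 1.98 and 27.0% ± 0.45 in the NS groups and at 42.6% ± 3.22 and 38.7% ± 3.57 in the SLIRP siRNA groups. CLDN12 thus held the highest share of counts in each NS library, and CLDN4 the highest, tied with CLDN7 in 1 library, in each SLIRP siRNA library.

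**Figure D2:**
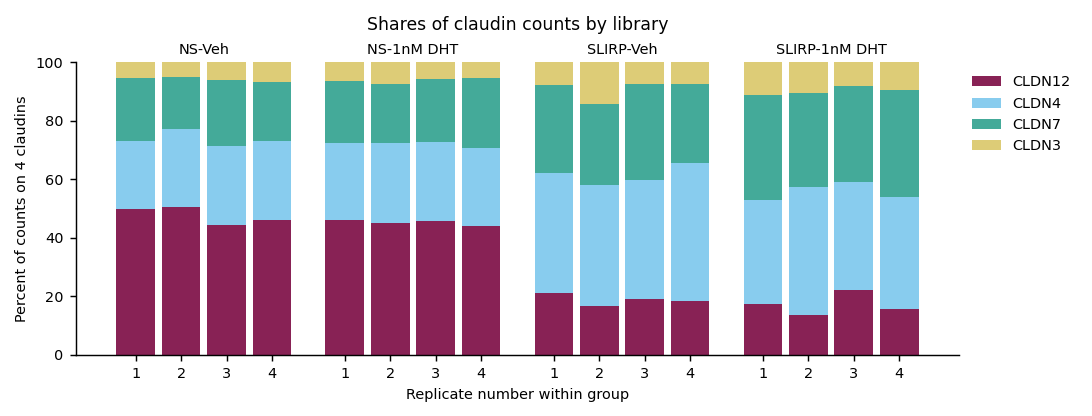
Share of the counts on CLDN12, CLDN4, CLDN7 and CLDN3 taken by each (vertical axis, percent) in each of the 16 libraries (bars, by replicate number within group). CLDN12 takes 43.96% to 50.4% in NS libraries and 13.6% to 22.2% in SLIRP siRNA libraries.

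Levels were compared between genes as CPM per kilobase of the canonical transcript. In NS-Veh, CDH1 was highest at 188 ± 3.52 (SD, n = 4), followed by CLDN4 at 82.8, CTNND1 at 75.1, CLDN12 at 72.3, TJP1 at 71.9, CLDN7 at 71.4, OCLN at 50.4, F11R at 35.0 and CLDN3 at 23.95 CPM per kilobase. From CLDN4 to CLDN7 in this order, the libraries of each gene overlapped with those of the next. In SLIRP-Veh the order was CDH1 at 162, TJP1 at 97.4, CLDN4 at 85.5, CTNND1 at 68.3, CLDN7 at 64.5, F11R at 46.1, OCLN at 32.5, CLDN3 at 24.6 and CLDN12 at 17.9 CPM per kilobase. CLDN12 was last of the 9 genes in both SLIRP siRNA groups, with libraries below all those of CLDN3 in SLIRP-Veh and overlapping them in SLIRP-1nM DHT. The lengths are those of 1 transcript a gene and may not be those of the isoforms in these cells.

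Of the 8 genes tested beside CLDN12, 4 passed an FDR of 0.01 for SLIRP siRNA against NS over vehicle and DHT together, OCLN and CDH1 lower and TJP1 and F11R higher. Among all 10159 genes tested 35.2% passed, 17.8% higher and 17.4% lower, so nothing is read from the count of members.

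OCLN encodes occludin, a membrane protein of tight junction strands. In vehicle, its level in the NS libraries was 326, 362, 289 and 270 CPM, and in the SLIRP siRNA libraries it was 202, 211, 189 and 202 CPM. In DHT, NS libraries held 238, 285, 303 and 306 CPM and SLIRP siRNA libraries held 184, 150, 218 and 223 CPM. All 8 SLIRP siRNA libraries were below all 8 NS libraries, which 15.2% of all genes showed in one direction or the other. OCLN fell by 0.57 on the log2 scale (SE 0.081, edgeR adjusted p = 7.89e-07), by 0.60 in vehicle (SE 0.11, adjusted p = 3.26e-05) and by 0.53 in DHT (SE 0.10, adjusted p = 1.11e-04). The fall of 32.8% was smaller than the 74.9% of CLDN12, which was chosen for its fall. OCLN lies at chr5:68788119-68853931 on the plus strand of hg19 and has a nearly identical partial copy on the same chromosome, so its counts are uncertain where reads could be split between the copies.

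TJP1 encodes a zonula occludens scaffold that binds claudins and occludin on one side and actin on the other. In vehicle, its level was 472, 473, 561 and 562 CPM in NS libraries and 660, 699, 748 and 695 CPM in SLIRP siRNA libraries. In DHT the values were 561, 565, 582 and 650 CPM and 738, 772, 816 and 735 CPM, respectively. Every SLIRP siRNA library lay above every NS library, the closest being the NS-1nM DHT library at 650 CPM and the SLIRP-Veh library at 660 CPM. Such a separation, in one direction or the other, was found for 15.2% of all genes. The log2 fold change was 0.39 (SE 0.064, edgeR adjusted p = 7.31e-06) over both treatments, 0.41 (SE 0.078, adjusted p = 6.64e-05) in vehicle and 0.37 (SE 0.075, adjusted p = 1.34e-04) in DHT, a rise of 31.0% over both. The call in DHT was lost with limma on the authors' normalized table (adjusted p = 0.0123 to 0.0158). The gene lies at chr15:29991571-30261118 on the minus strand of hg19.

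F11R encodes the junctional adhesion molecule JAM-A. In vehicle, NS libraries held 154, 141, 155 and 199 CPM and SLIRP siRNA libraries held 200, 191, 232 and 232 CPM. In DHT, NS libraries held 161, 165, 153 and 152 CPM and SLIRP siRNA libraries held 202, 202, 226 and 209 CPM. The groups overlapped in vehicle through NS-Veh replicate 4 and did not overlap in DHT. F11R rose by 0.39 on the log2 scale (SE 0.074, edgeR adjusted p = 6.26e-05), by 0.36 in vehicle (SE 0.10, adjusted p = 0.00596) and by 0.42 in DHT (SE 0.10, adjusted p = 0.00110). The vehicle call was lost when any of NS-Veh replicates 1, 2 and 3 or SLIRP-Veh replicates 3 and 4 was left out (adjusted p = 0.0171 to 0.0422), and the calls in vehicle and in DHT were lost with limma (adjusted p = 0.0125 to 0.0279). The gene lies at chr1:160965001-160991133 on the minus strand of hg19 and shares exon bases with 1 overlapping protein-coding locus on the same strand.

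CDH1, which encodes E-cadherin, had the highest level of the set. In vehicle, NS libraries held 930, 895, 900 and 893 CPM and SLIRP siRNA libraries held 843, 799, 692 and 773 CPM. In DHT, NS libraries held 961, 956, 882 and 829 CPM and SLIRP siRNA libraries held 791, 766, 736 and 714 CPM. The groups were separate within each treatment and overlapped over both, where NS-1nM DHT replicate 4 at 829 CPM was below SLIRP-Veh replicate 1 at 843 CPM. CDH1 fell by 0.25 on the log2 scale (SE 0.054, edgeR adjusted p = 3.58e-04) over both treatments and by 0.27 in DHT (SE 0.072, adjusted p = 0.00278). In vehicle its log2 fold change was -0.21 (SE 0.073, adjusted p = 0.0216), which did not pass. The call in DHT was lost without NS-1nM DHT replicate 1 or 2 or SLIRP-1nM DHT replicate 3 or 4 (adjusted p = 0.0179 to 0.0244), and the vehicle call was gained without SLIRP-Veh replicate 1 (adjusted p = 0.00837). The gene lies at chr16:68771195-68869440 on the plus strand of hg19 and shares exon bases with an antisense long noncoding RNA.

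CTNND1 encodes the catenin that binds the E-cadherin tail next to the membrane and holds the cadherin there. It lay between 414 and 557 CPM in NS libraries and between 379 and 483 CPM in SLIRP siRNA libraries, which overlapped. Its log2 fold change of -0.19 (SE 0.067, edgeR adjusted p = 0.0214) did not pass, and it passed with treatment as a covariate (adjusted p = 0.00842) or without NS-1nM DHT replicate 4 (adjusted p = 0.00487). The gene lies at chr11:57520715-57587018 on the plus strand of hg19 and shares exon bases with 2 overlapping protein-coding loci on the same strand.

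Within vehicle 21.6% of 10676 genes passed for SLIRP siRNA against NS, 11.8% higher and 9.84% lower, and the groups of 29.3% did not overlap. Within DHT 24.4% passed, 12.8% higher and 11.6% lower, and the groups of 32.2% did not overlap. OCLN, TJP1 and F11R passed in both treatments and CDH1 in DHT.

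**Figure D3:**
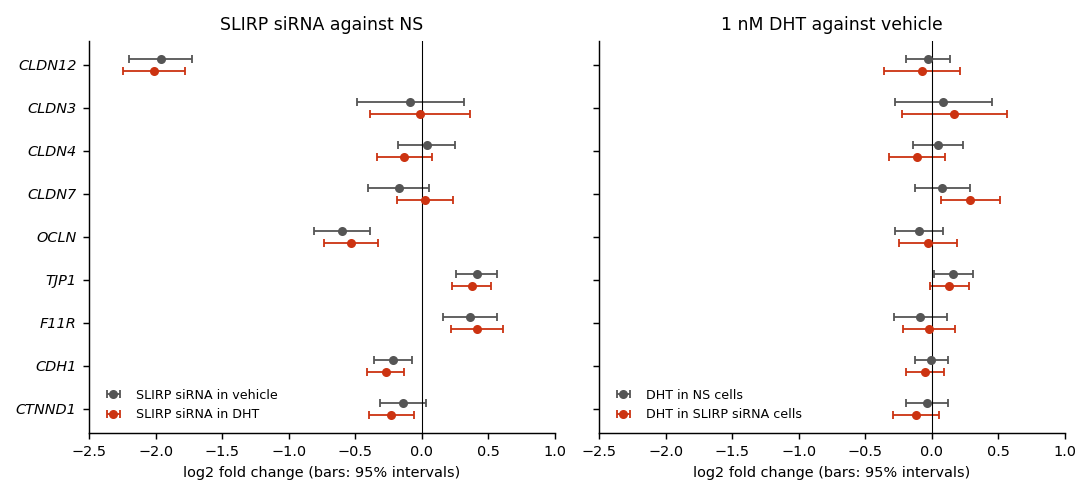
Log2 fold change of each of the 9 genes (horizontal axes) for SLIRP siRNA against NS in vehicle and in DHT (left) and for 1 nM DHT against vehicle in NS and in SLIRP siRNA cells (right), with bars for 95% intervals. CLDN12 stands at -1.96 and -2.01 in the left panel, and in the right panel the 18 estimates lie between -0.12 and 0.29.

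DHT at 1 nM moved none of the 9 genes past the FDR. KLK3, the androgen-induced gene of prostate-specific antigen, served as a check of the treatment and was at 39.5 ± 13.7 CPM (SD, n = 4) in NS-Veh and at 288 ± 43.9 CPM in NS-1nM DHT. In NS cells 1.31% of 10359 genes passed, 0.85% higher and 0.463% lower, and in SLIRP siRNA cells 1.17% of 10676 genes passed, 0.637% higher and 0.534% lower. The groups with and without DHT overlapped for all 9 genes. Among all genes they did not overlap for 8.74% in NS cells and 8.36% in SLIRP siRNA cells. At shares this low nothing is read from the overlap of the 9 genes. At an unadjusted p under 0.05 there was 1 member in each, TJP1 in NS cells with a log2 fold change of 0.16 (SE 0.075, edgeR adjusted p = 0.321) and CLDN7 in SLIRP siRNA cells with 0.29 (SE 0.11, adjusted p = 0.186). DESeq2 and limma also called 0 of the 9 genes in both.

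CLDN12 had a log2 fold change with DHT of -0.03 in NS cells (95% interval -0.19 to 0.13, edgeR adjusted p = 0.929) and of -0.07 in SLIRP siRNA cells (95% interval -0.36 to 0.21, adjusted p = 0.873). A change with DHT of more than 0.19 in NS cells thus lies outside the interval, and one of up to 0.36 in SLIRP siRNA cells lies within it. The difference of the DHT response between siRNAs was -0.05 for CLDN12 (95% interval -0.39 to 0.30, adjusted p = 1.00) and ranged from -0.17 for CLDN4 to 0.20 for CLDN7 on the log2 scale. For this difference 0 of 10676 genes passed with edgeR, with 388 genes and 0 of the 9 at an unadjusted p under 0.05, and DESeq2 and limma also called 0. The comparisons of DHT and of siRNA share the NS-Veh libraries and were not set against each other.

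Other genes of the same junctions were taken as lists of 105 genes in all, of which 59 passed the filter on low counts over the 16 libraries. With SLIRP siRNA over vehicle and DHT together, 11 of the 59 were higher and 12 were lower, or 39.0%, beside 35.2% of all genes tested and 41.9% of those whose mean count was at least 30. Their median log2 fold change was -0.03, beside -0.01 for all genes tested. The share of calls among junction genes was near that of all genes, in both directions. The single lists below are small, and nothing is read from their counts of calls. The fold changes of these 59 genes ranged from -0.82 to 0.95, beside -4.92 to 2.32 among all genes tested. That of CLDN12 was lower than those of the 59 genes, which follows from its choice by this contrast and is not read as a result.

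Among 18 other claudins and claudin-like genes only CLDN8 and CLDND1 passed the filter in this comparison. CLDND1, whose product resembles claudins in its transmembrane domains, rose from 24.4 ± 3.68 CPM (SD, n = 4) in NS-Veh to 48.2 ± 7.68 CPM in SLIRP-Veh, and from 26.2 ± 1.68 to 51.2 ± 14.3 CPM in DHT. Its log2 fold change was 0.95 (SE 0.14, edgeR adjusted p = 9.58e-07). Its libraries with and without SLIRP siRNA did not overlap, as for 15.2% of all genes. CLDN8 was at 11.6 to 28.3 CPM with a log2 fold change of 0.13 (SE 0.21, adjusted p = 0.649). CLDN2, CLDN14, CLDN16, CLDN17, CLDN18 and CLDN22 had 0 counts in every library, which at 3 counts allows up to 1.78 CPM in the deepest library and 6.88 CPM in the shallowest.

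Of the other membrane proteins of tight junctions 4 of 9 were tested and 1 passed, beside 35.2% of all genes tested. MARVELD2, the gene of tricellulin, which belongs to the occludin family and sits where 3 cells meet, fell by 0.35 on the log2 scale (SE 0.080, edgeR adjusted p = 5.50e-04). It stood at 292 ± 41.6 CPM in NS-Veh and 211 ± 23.1 CPM in SLIRP-Veh. With DHT it was at 238 ± 9.81 and 199 ± 5.75 CPM, respectively. MARVELD2 passed in vehicle, with a log2 fold change of -0.43 (edgeR adjusted p = 6.85e-04). It did not pass in DHT, with -0.27 (edgeR adjusted p = 0.0281). All 4 tested genes of this list had fold changes below 0, from -0.53 to -0.14 on the log2 scale. Among all 10159 genes tested 5233 were below 0, so nothing is read from these 4 signs.

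Scaffold and polarity genes of the tight junction plaque numbered 24, of which 21 were tested, 5 were higher and 2 were lower. Among all genes tested 17.8% were higher and 17.4% were lower. CSDA, whose product binds the TJP1 scaffold and acts as a Y-box factor, rose by 0.69 on the log2 scale (SE 0.078, adjusted p = 1.40e-08), the scaffold gene MAGI1 by 0.56 over both treatments (SE 0.11, adjusted p = 7.95e-05) and cingulin (CGN), which links the plaque to actin and myosin, by 0.54 (SE 0.12, adjusted p = 3.21e-04), all by edgeR. MAGI1 passed in vehicle, with a log2 fold change of 0.79 (edgeR adjusted p = 9.45e-06), and did not pass in DHT, with 0.30 (adjusted p = 0.0701), and the difference between them of -0.49 did not pass either (adjusted p = 1.00). CGN passed in vehicle, with 0.62 (edgeR adjusted p = 0.00280), and did not pass in DHT, with 0.44 (adjusted p = 0.0304). LIN7C, a small PDZ protein of polarity complexes, fell by 0.82 over both treatments (SE 0.071, edgeR adjusted p = 9.46e-11). Its level was 215 ± 9.79 CPM in NS-Veh and 124 ± 6.72 CPM in SLIRP-Veh. The median of the list was 0.00, with 10 genes above 0 and 11 below.

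Adherens junction genes other than CDH1 and CTNND1 numbered 24, of which 16 were tested, 3 were higher and 5 were lower. The shares over all genes tested were 17.8% higher and 17.4% lower. PVRL2, a nectin, fell by 0.64 on the log2 scale (SE 0.10, edgeR adjusted p = 7.12e-06). CTNNB1, the gene of beta-catenin, which binds the E-cadherin tail and also acts in Wnt signalling, fell by 0.51 (SE 0.079, adjusted p = 3.20e-06), from 599 ± 38.0 CPM in NS-Veh to 418 ± 85.5 CPM in SLIRP-Veh. Vinculin (VCL), an actin linker, fell by 0.42 (SE 0.083, adjusted p = 1.22e-04). With only replicates 3 and 4 the log2 fold change of VCL was -0.22 and did not pass (edgeR adjusted p = 0.0905), and that of CTNNB1 was -0.28 and passed. In the other direction, EPCAM, an epithelial adhesion molecule, rose by 0.52 (SE 0.087, adjusted p = 1.11e-05), the nectin PVRL1 by 0.42 (SE 0.12, adjusted p = 0.00408) and afadin (MLLT4), which binds nectins to actin, by 0.38 (SE 0.10, adjusted p = 0.00353). Nectins thus moved in both directions, PVRL1 higher and PVRL2 lower. The call of PVRL1 was lost without SLIRP-1nM DHT replicate 3 or 4 (adjusted p = 0.0129 and 0.0112) and that of MLLT4 without SLIRP-1nM DHT replicate 1 (adjusted p = 0.0103), and both were lost with limma (adjusted p = 0.0159 to 0.0499).

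Desmosomes are the spot-like junctions tied to keratin filaments. Of 14 genes 9 were tested, 1 was higher and 3 were lower, beside 17.8% higher and 17.4% lower among all genes tested. The plakin PPL fell by 0.51 on the log2 scale (SE 0.14, edgeR adjusted p = 0.00373), the plakophilin PKP3 by 0.40 (SE 0.11, adjusted p = 0.00363) and PERP, a membrane protein of desmosomes, by 0.38 (SE 0.076, adjusted p = 1.48e-04). The desmosomal cadherin DSG2 rose by 0.51 (SE 0.083, adjusted p = 7.97e-06). With only replicates 3 and 4 the log2 fold change of PERP was -0.19 and did not pass (edgeR adjusted p = 0.102), and with only replicates 1 and 2 it was -0.57. The call of PPL was lost without NS-Veh replicate 3, NS-1nM DHT replicate 1 or SLIRP-1nM DHT replicate 4 (adjusted p = 0.0102 to 0.0193), and that of PKP3 without NS-1nM DHT replicate 1 or SLIRP-Veh replicate 1 or 4 (adjusted p = 0.0125 to 0.0151).

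DSG2 was also the 1 gene of the junction lists that passed with DHT, of 59 tested in NS cells and of 63 in SLIRP siRNA cells. Its level in NS cells was 336 ± 10.3 CPM (SD, n = 4) with vehicle and 426 ± 29.9 CPM with DHT, and in SLIRP siRNA cells 481 ± 33.8 and 609 ± 27.0 CPM. The groups with and without DHT did not overlap for either siRNA, as for 8.74% of all genes in NS cells and 8.36% in SLIRP siRNA cells. The log2 fold change with DHT was 0.33 in NS cells (SE 0.075, edgeR adjusted p = 0.00911) and 0.34 in SLIRP siRNA cells (SE 0.075, adjusted p = 0.00595), and the difference between them was 0.00 (95% interval -0.21 to 0.22). Both calls sat close to the threshold. In NS cells DSG2 passed without NS-1nM DHT replicate 4 and did not pass without any other library (adjusted p = 0.0219 to 0.0445), nor with DESeq2, upper-quartile normalization, limma or the 4-group model (adjusted p = 0.0121 to 0.0474), nor, just above 0.01, with RLE normalization. In SLIRP siRNA cells its call was lost without SLIRP-Veh replicate 2 or 4 or SLIRP-1nM DHT replicate 2 or 3 (adjusted p = 0.0108 to 0.0291), and with upper-quartile normalization, limma or only the groups compared (adjusted p = 0.0120 to 0.0866).

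Factors that raise or lower junction genes were read as a list of 16, of which 7 were tested. ELF3, an epithelial ETS factor, rose by 0.48 on the log2 scale (SE 0.14, edgeR adjusted p = 0.00424) and ESRP1, an epithelial splicing regulator, fell by 0.32 (SE 0.090, adjusted p = 0.00410). Neither passed within vehicle or within DHT alone. The call of ELF3 was lost without NS-1nM DHT replicate 3 or 4 or SLIRP-Veh replicate 1 (adjusted p = 0.0104 to 0.0144) and with limma (adjusted p = 0.0206 to 0.0221), and that of ESRP1 without NS-Veh replicate 3, NS-1nM DHT replicate 4 or SLIRP-1nM DHT replicate 3 (adjusted p = 0.0101 to 0.0215) and with no filter on low counts (adjusted p = 0.0124). The grainyhead factor GRHL2, an activator of CDH1 and claudin genes, lay between 162 and 209 CPM with a log2 fold change of -0.05 (SE 0.074, adjusted p = 0.640). Of the repressors that bind E-boxes, ZEB2 and TWIST2 had 0 counts in every library, and SNAI1, SNAI2, ZEB1 and TWIST1 had at most 6.29, 1.74, 1.46 and 5.26 CPM.

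**Figure D4:**
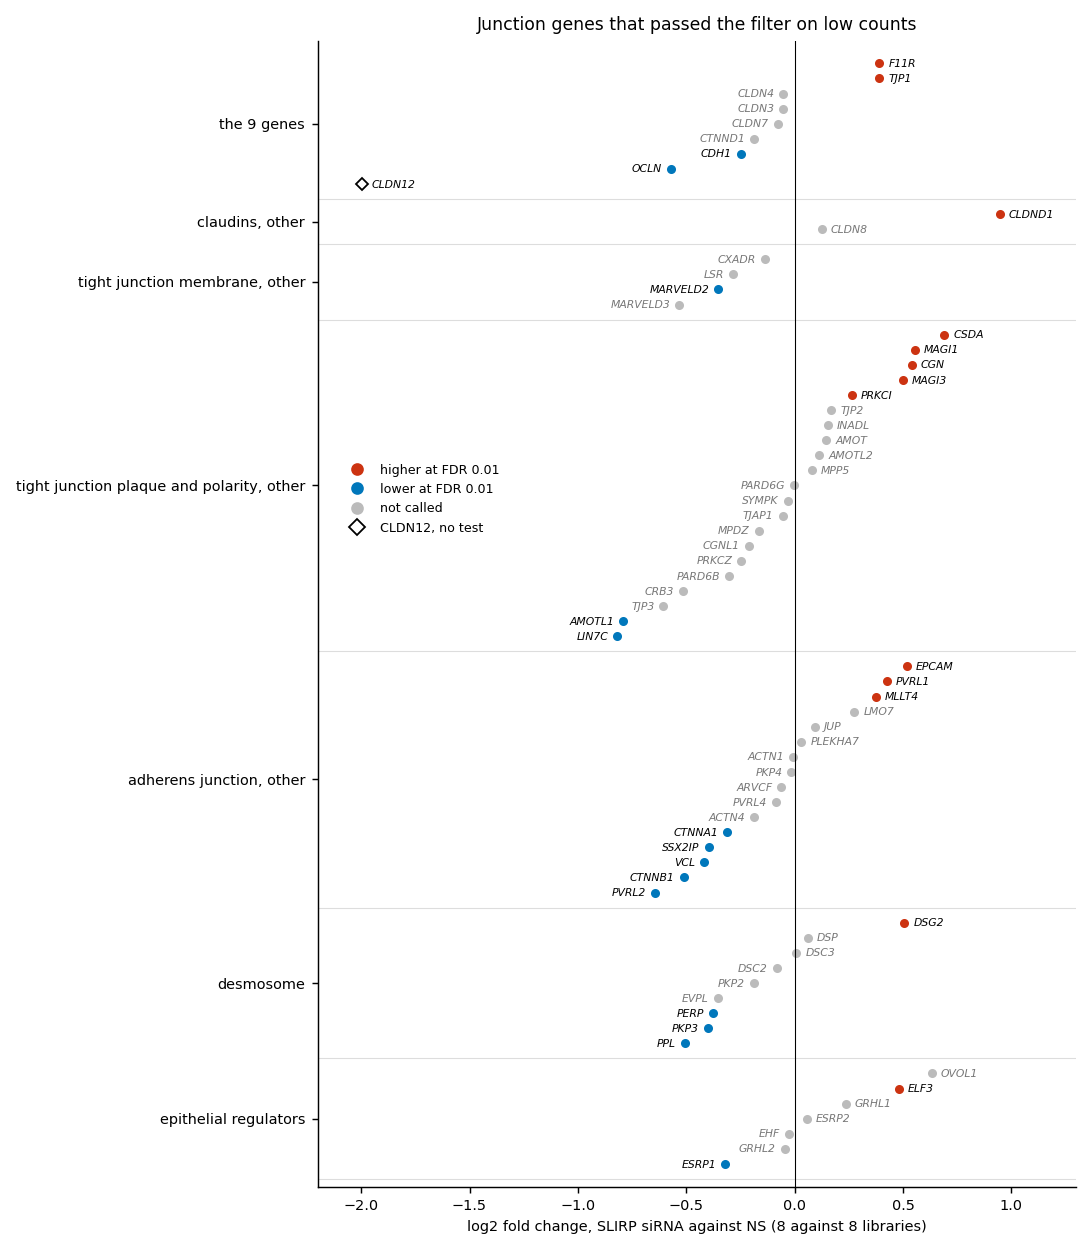
Log2 fold change (horizontal axis) of the 68 junction genes that passed the filter on low counts, CLDN12 included, for SLIRP siRNA against NS over 8 and 8 libraries, grouped by list (vertical axis), with colours for an FDR of 0.01 and an open diamond for CLDN12, which was not tested. CLDN12, chosen for its low level in this contrast, is at -1.996, and the other genes range from -0.82 to 0.95 with a median near 0.

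Protein-coding neighbours of CLDN12 within 250 kb on hg19 were read as far as the count table lists them. STEAP2 and STEAP1, which encode membrane proteins of the metalloreductase family found in prostate epithelium, were lower with SLIRP siRNA, with log2 fold changes of -1.13 (SE 0.069, edgeR adjusted p = 4.13e-14) and -0.62 (SE 0.069, adjusted p = 1.11e-08). STEAP2 lay at 2622 ± 386 CPM in NS-Veh and 1197 ± 139 CPM in SLIRP-Veh. GTPBP10, on the side of lower coordinates, had a log2 fold change of 0.26 (SE 0.090, adjusted p = 0.0169) and CDK14 on the other side had 0.14 (SE 0.087, adjusted p = 0.184), and neither passed. GTPBP10 passed without NS-Veh replicate 4 or SLIRP-Veh replicate 4 (adjusted p = 0.00710 and 0.00998). The loci of GTPBP10 and CDK14 overlap that of CLDN12 at either end. As neither passed over all libraries, nothing is read from the signs of their fold changes. STEAP1 and STEAP2 are prostate epithelial genes, and the LNCaP markers moved in both directions. FOLH1, HOXB13 and KRT8 were lower with SLIRP siRNA, with log2 fold changes of -0.68, -0.63 and -0.51, respectively. KLK3 was higher within vehicle (1.11, edgeR adjusted p = 1.01e-06) and within DHT (0.37, adjusted p = 0.00326) and did not pass over both, and KRT18 had a log2 fold change of -0.06 (adjusted p = 0.532). The part of these markers in the results on junction genes was not tested.

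The genes whose log2 CPM followed that of CLDN12 most closely over the 16 libraries were FBXL17 (Pearson r = 0.990), RAC1 (0.987), RAB6A (0.983), RMND5A (0.983) and SLC30A9 (0.983), among 2696 genes whose mean count was at least 100. These correlations rest on the contrast by which CLDN12 was chosen, as all 5 genes were lower with SLIRP siRNA, with log2 fold changes of -1.33, -1.62, -1.55, -0.56 and -1.51 in that order. With the group means taken out, r was 0.73 for FBXL17, 0.52 for RAC1, 0.38 for RAB6A, 0.68 for RMND5A and 0.57 for SLC30A9. Among the other 8 genes of the set, the only junction genes correlated with CLDN12 here, OCLN had the highest r, at r = 0.91 and 0.59 with group means taken out, and TJP1 and F11R ran the other way at -0.87 and -0.83, or -0.10 and 0.21 with group means taken out. CLDN3, CLDN4 and CLDN7 had r between -0.08 and 0.24 with CLDN12. All values are from the same 16 libraries and share their depth and scaling.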

How the data were processed

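RNA from 16 LNCaP libraries (4 groups of 4) was sequenced with single 50-base reads and referred to hg19 by the authors. The submitters' processing notes name CASAVA and RSEM, without versions. Strand and annotation of the counting are not given in the sources used here. The deposited table of estimated counts holds whole numbers for 20531 entries, of which 29 have no symbol (0.0305% to 0.0420% of counts) and were left out. The authors' normalized table of 13148 genes holds a score, the estimated count divided by the library's upper quartile and multiplied by 1000, and was used only as an alternative. Totals of 436353 to 1689708 counts set the precision, and floors of 3 counts cover counting error only. Replicate pairs of a group differed by a chi-square per degree of freedom of 1.21 to 2.26, above 1 for every pair, so no library was counted as a copy of another. In NS-Veh it was 1.22 for replicates 1 and 2 and 1.36 for 3 and 4, beside 1.43 to 1.65 for the other pairs. In NS-1nM DHT it was 1.21 and 1.29, beside 1.50 to 1.86. SLIRP-Veh had 1.21 for replicates 3 and 4 but 1.88 for 1 and 2, beside 1.50 to 2.18. SLIRP-1nM DHT had 1.52 for replicates 1 and 2 but 1.74 for 3 and 4, beside 1.72 to 2.26. P-values measure the spread between these libraries, which came from 2 experiments, and treat the libraries as independent. The sources used here do not say which replicate numbers belong to which experiment, and the main fits held no term for it.

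The models were fitted in edgeR 4.0.16 under R 4.3.3 (TMM, filterByExpr, glmQLFit, glmQLFTest, Benjamini-Hochberg over all genes tested, FDR 0.01). The 16 libraries without a covariate gave SLIRP siRNA against NS, the 8 NS libraries gave DHT against vehicle in NS cells, and contrasts of a 4-group model gave the rest. Log2 CPM used a prior count of 2. The SE of edgeR values was derived from the log2 fold change and the quasi-likelihood F. The 95% intervals are normal approximations from that SE and need not match the p-values. The members, lists and tests were chosen with earlier results of these data known. Genes named beside the 9 members were, per list, up to 3 rises and 3 falls of largest size with an FDR of 0.01 and a mean count of at least 30 under SLIRP siRNA, up to 5 list genes passing with DHT per comparison, and the 5 genes of highest correlation with CLDN12. CLDN8, GRHL2, the repressors, the claudins at 0 and the neighbours of CLDN12 were named after their values were seen. The models were also run on simulated data with independent libraries and a fixed spread for all genes. That setting differs from these libraries, so nothing is read from it. Alternatives were DESeq2 1.42.0, upper-quartile and RLE normalization, other count filters, the replicate block, treatment as a covariate, an FDR of 0.05, a 4-group model for DHT in NS cells, fits of only the groups compared, limma 3.58.1 on log2 of the normalized score (pseudocounts 1 and 0.1, with and without a filter at a mean of 10) and leaving out each library. Only replicates 1 and 2 or only 3 and 4 were added after seeing the data. Loci are from GENCODE v44 on hg19 and promoters from RefSeq. Python 3.11.15 with matplotlib 3.10.9 drew the figures. The results of 2 genes on the LNCaP marker list are not reported here.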

Additional observations from a re-analysis of the deposited data

Results flagged for a closer look

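In each gene and group the highest or lowest of the 4 libraries was compared with the others, 36 groups in all, of which 2 had a library set apart from its group by Dixon's 95% criterion. Chance gives about 1 in 20. CLDN3 in SLIRP-Veh replicate 2 was at 47.0 CPM, beside 25.5 to 27.2 CPM in the other 3 libraries. CLDN4 in SLIRP-Veh replicate 4 was at 172 CPM, beside 134 to 139 CPM in the others. Without that library the log2 fold change for SLIRP siRNA in vehicle was -0.29 for CLDN3 and -0.05 for CLDN4, beside -0.09 and 0.04 with it, and did not pass the FDR of 0.01 in edgeR.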

How the results depend on the processing

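Member values under alternatives other than leaving out a library numbered 612, and 594 kept their side of the FDR. With 1 library left out, 564 of 576 did. Direction could differ where neither fit passed, as for CLDN4 over both treatments (log2 fold change -0.13 to 0.04 under alternatives). Both totals include CLDN12 under SLIRP siRNA, whose calls followed from its choice. They also include the comparisons of DHT against vehicle, in which no member passed in the main fit. No value reversed a call. Over vehicle and DHT together the log2 fold change of CLDN12 with SLIRP siRNA ranged from -2.17 to -1.83 under alternatives. That range includes the fits of only replicates 1 and 2 and of only 3 and 4. With 1 library left out the value of CLDN12 ranged from -2.06 to -1.95. F11R (adjusted p = 0.0155) and CDH1 (0.0249) did not pass with only replicates 1 and 2, which leaves 4 libraries a side. F11R in vehicle did not pass with only the groups compared (0.0117). The cause of the changes given with the genes was not tested. Of the other named genes 325 of 366 values kept their side, and 388 of 416 with 1 library left out. PVRL1, MLLT4, PPL, PKP3, ESRP1 and ELF3 lost their call with only replicates 1 and 2 and with only 3 and 4, MARVELD2, MAGI1 and EPCAM with only 1 and 2, and CGN, VCL and PERP with only 3 and 4.

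SLIRP siRNA over both treatments gave 2055 calls among all genes and 14 among junction genes with only replicates 1 and 2, and 2127 and 16 with only replicates 3 and 4, beside 3577 and 28. Junction counts for SLIRP siRNA in this section, also those with 1 library left out, include CLDN12, which was chosen by that contrast. Its place in these counts followed from that choice and is not read as a result. DHT in NS cells gave 236 calls without a filter on low counts, 275 with the replicate block, 279 at an FDR of 0.05 and 37, 26 and 38 with limma (pseudocount 1, pseudocount 0.1, no filter), beside 136. Junction genes called there were 2 without a filter, with the block and at an FDR of 0.05, and 0 with DESeq2, upper-quartile or RLE normalization, limma (all 3) and the 4-group model, beside 1. DHT in SLIRP siRNA cells gave 223 calls without a filter, 310 at an FDR of 0.05 and 62, 48 and 62 with limma, beside 125, and junction genes called were 2, 3, and 0 with limma, upper-quartile normalization or only the groups compared, beside 1. The difference of the DHT response gave 13 calls without a filter, beside 0.

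With 1 library left out, calls among all and junction genes were 3301 to 3560 and 25 to 30 for SLIRP siRNA over both treatments, 1779 to 2106 and 12 to 14 in vehicle, 2175 to 2463 and 17 to 20 in DHT, 83 to 114 and 0 to 1 for DHT in NS cells, 73 to 111 and 0 to 2 for DHT in SLIRP siRNA cells, and 0 to 1 and 0 to 0 for their difference. The counts of all genes fell more than 1.5 times below those over all libraries, for DHT in NS cells without NS-Veh replicate 1 (83) or 2 (87), and for DHT in SLIRP siRNA cells without SLIRP-Veh replicate 1 (73).

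Same-numbered libraries correlated at 0.00 to 0.20 (deviations from group means, 6961 genes), not all above 0.1, so the numbers were not taken as pairs. With the replicate block CTNND1 passed over both treatments (log2 fold change -0.19, adjusted p = 0.00173) and CDH1 in vehicle (-0.22, 0.00456), and no other member call changed. The share of higher calls was 41.9% for SLIRP siRNA in DHT with limma, and for DHT in SLIRP siRNA cells 41.3% with upper-quartile normalization, 33.9% to 35.4% with limma and 65.8% without SLIRP-1nM DHT replicate 4, beside 52.6% and 54.4%. CLDN3 had the fewest counts of the set and the widest intervals for SLIRP siRNA.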
